A study of Mus musculus with 6 samples.

Results

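The distal end of mouse chromosome 2 carries a run of zinc finger genes, and 52 protein-coding genes of the segment chr2:174500000-178500000 (GRCm38, GENCODE M21) are described here. They are 52 of the 21995 protein-coding genes and of the 54532 genes of the expression table. The segment was chosen by the difference in FPKM between genotypes that Gm14410 and its paralogues showed in these same libraries, so every difference between genotypes given below for a member is a description without a test. Of the 52 members, 36 encode at least 3 C2H2 zinc fingers (3 to 25), and a KRAB box pattern was found in 35 of these. A further 8 members encode a KRAB box with fewer than 3 fingers, and the last 8 are Zfp831, Zfp972 and 6 genes of other families.

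RNA-seq was performed on brain tissue, with all cell types included, of mice at postnatal day 15. The 6 libraries comprised 3 from Angptl2+/+ and 3 from Angptl2-/- animals, and they are numbered as replicates 1 to 3 of each genotype. By the study's methods, the knockout lacks exon 2 of Angptl2, which encodes a secreted angiopoietin-like protein, and was bred on a C57BL/6 background from Angptl2 fl/fl males carrying Stra8-cre, a Cre expressed in male germ cells, and wild-type females, so that the deletion arose in the germ line and no single brain cell type was targeted. The labels name no treatment in either genotype. The labels do not state that each library came from a separate mouse, so the spread between replicates may be partly technical. Expression is given as FPKM, the fragments of a gene scaled to exon length and to library depth, and 17127276 to 18928921 fragments per library were assigned to genes.

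KRAB zinc finger proteins are the largest family of transcription factors in mammals. Their arrays of C2H2 fingers bind DNA, and the KRAB box recruits Trim28, which in turn brings in histone methyltransferase, deacetylase and heterochromatin proteins that silence the bound site. Many members bind transposable elements, and the genes lie in clusters that grew by tandem duplication and differ greatly between species. The copies in such a cluster can be so alike that a sequenced fragment fits several of them.

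The proteins begin with nearly the same KRAB box. The 90 bases at the start of the coding sequence are shown for the 6 zinc finger members with a mean FPKM of at least 0.5 whose libraries did not overlap between genotypes and for the abundant Gm14305, 5′ to 3′ on the coding strand, since they show how little of the sequence tells one copy from another. Capitals mark the bases that differ from Gm14410.
Gm14410: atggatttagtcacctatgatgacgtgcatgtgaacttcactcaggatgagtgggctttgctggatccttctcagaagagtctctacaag
Gm14399: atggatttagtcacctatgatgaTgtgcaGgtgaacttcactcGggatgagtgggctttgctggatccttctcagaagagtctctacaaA
Gm11007: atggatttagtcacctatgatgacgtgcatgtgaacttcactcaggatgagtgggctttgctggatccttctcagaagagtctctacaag
Gm14305: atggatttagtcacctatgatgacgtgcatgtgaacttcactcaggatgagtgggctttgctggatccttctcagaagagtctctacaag
Gm14325: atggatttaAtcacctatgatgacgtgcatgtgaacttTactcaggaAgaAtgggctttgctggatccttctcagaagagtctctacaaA
Zfp971: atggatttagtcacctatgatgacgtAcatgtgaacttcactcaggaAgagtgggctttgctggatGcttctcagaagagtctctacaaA
Zfp931: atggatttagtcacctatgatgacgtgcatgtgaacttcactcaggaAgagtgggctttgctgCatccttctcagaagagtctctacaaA
Gm11007 and Gm14305 have the same 90 bases as Gm14410, and so do 8 of the 35 other zinc finger members in all. The remaining 4 shown differ from Gm14410 at 3 to 5 bases. The likeness extends over the finger arrays. The 498-residue protein of Gm11007 was identical to that of Gm4724 (100%), Gm14305 matched Gm4724 at 98.8% of aligned residues and Gm14325 matched it at 92.4%. The 610-residue protein of Gm14399 was closest to Gm14326, at 89.7%. Gm14410, with 370 residues, was closest to Gm14322 at 80.5%, Zfp971 to Zfp969 at 81.2% and Zfp931, with 298 residues, to Gm14401 at 76.6%.

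The promoters share a sequence as well. RefSeq gave a window of 300 bases (250 before and 50 after the transcript start, GRCm38.p6) for 36 of the 52 members, 26 of them zinc finger genes. The windows of the 4 separated members with the highest mean FPKM are shown on the strand of the gene. In them, capitals mark a stretch of 20 bases, AACCCTAAGGGTGGTGCTCA. It was chosen because no other stretch of that length was held by more of the 26 zinc finger genes. Gm14410 (chr2:177206447-177206746) and Gm14325 (chr2:177840287-177840586) are on the minus strand, Zfp971 (chr2:178023034-178023333) is on the plus strand and Zfp931 (chr2:178078376-178078675) is on the minus strand.
Gm14410: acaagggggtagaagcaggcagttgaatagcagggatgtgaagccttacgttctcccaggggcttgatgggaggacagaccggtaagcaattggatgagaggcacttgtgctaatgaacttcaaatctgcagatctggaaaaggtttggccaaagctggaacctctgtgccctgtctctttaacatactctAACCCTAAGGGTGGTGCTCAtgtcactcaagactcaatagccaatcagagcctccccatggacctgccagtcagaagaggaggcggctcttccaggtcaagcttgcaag
Gm14325: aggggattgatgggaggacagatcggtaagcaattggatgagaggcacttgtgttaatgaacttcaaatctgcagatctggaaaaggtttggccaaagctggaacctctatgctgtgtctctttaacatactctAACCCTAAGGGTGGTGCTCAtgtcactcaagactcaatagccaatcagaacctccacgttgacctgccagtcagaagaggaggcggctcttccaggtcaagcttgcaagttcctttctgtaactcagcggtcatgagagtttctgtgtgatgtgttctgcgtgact
Zfp971: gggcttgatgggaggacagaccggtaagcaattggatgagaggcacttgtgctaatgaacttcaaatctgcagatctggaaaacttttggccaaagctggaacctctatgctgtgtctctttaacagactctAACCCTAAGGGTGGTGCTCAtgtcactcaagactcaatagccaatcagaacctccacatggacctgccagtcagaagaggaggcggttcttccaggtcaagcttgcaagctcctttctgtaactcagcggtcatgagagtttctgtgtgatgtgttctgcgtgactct
Zfp931: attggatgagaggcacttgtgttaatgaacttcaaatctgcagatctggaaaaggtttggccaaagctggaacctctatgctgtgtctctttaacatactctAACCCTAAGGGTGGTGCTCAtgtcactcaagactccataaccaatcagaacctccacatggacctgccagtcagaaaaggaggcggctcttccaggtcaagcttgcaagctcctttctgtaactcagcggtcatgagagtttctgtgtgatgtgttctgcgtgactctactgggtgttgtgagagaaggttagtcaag
Searched on both strands, AACCCTAAGGGTGGTGCTCA was present in 24 of the 26 zinc finger promoters. The stretch was chosen by this count, which is therefore not a separate result. Of all 27025 genes with a promoter window, 29 held it (0.107%), and these 29 all lie in the segment. The 5 holders outside the zinc finger members were Gm14440, Gm14288, 2210418O10Rik, Zfp972 and Gm35319. The window of Gm35319 (chr2:178078290-178078589) overlaps that of Zfp931, and the stretch of Zfp931 lies in the overlap. The 29 genes are therefore not 29 separate copies of the stretch. Relative to the transcript start, the stretch began between −148 and −32. Aligned end to end, the windows of Gm14325 and Zfp971 were 95.4% identical, while the window of Gm14410, in which the stretch sits farther downstream, was 51.9 to 65.3% identical to the other 3. CpG dinucleotides were few, with a median of 4 per zinc finger window (1 to 5) against 7 over all promoter windows. The shared stretch is a description of these windows, and whether any protein binds it was not tested.

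Because exons are shared as well, the value of a single copy is less certain than its fragments alone imply. Each transcript was cut into overlapping windows of 100 bases, and a median of 73.0% of the windows of a zinc finger member occurred in another annotated gene. In 23 of the 36 genes at least 50% of the windows were shared, in 5 every window was shared, and no gene was free of sharing. The least shared was Gm14443 (0.806%). No shared window occurred in an annotated gene on another chromosome. How the authors counted fragments that fit several copies is not given in the sources used here, nor is the strand setting. Zfp973 overlaps Gm14305 on the same strand, and Zfp971 overlaps the antisense lincRNA Gm26869, so the fragments of those pairs cannot be assigned with certainty either.

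**Figure D1:**
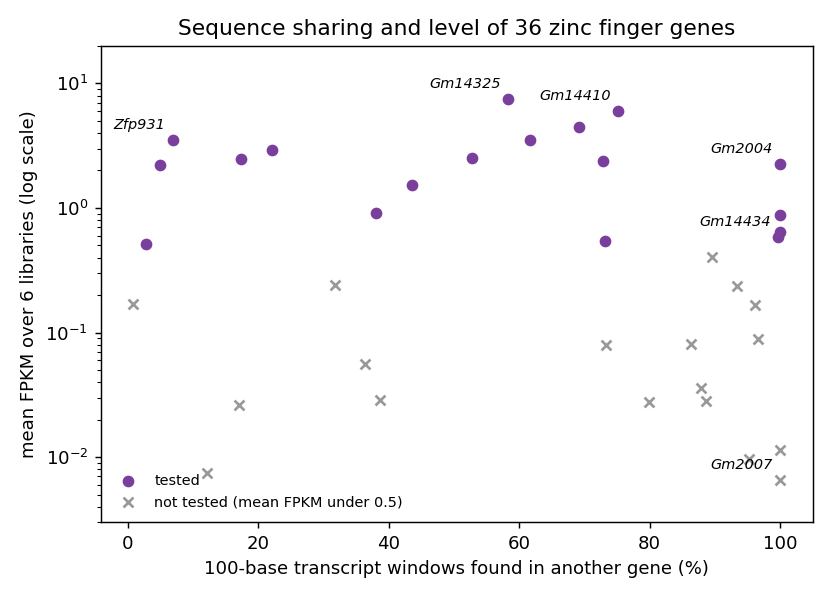
Share of 100-base transcript windows found in another gene (x axis, %) against mean FPKM over the 6 libraries (y axis, log scale) for the 36 zinc finger members, 1 point per gene, with circles for genes at or above a mean FPKM of 0.5 and crosses for the others. Abundant genes occur at low sharing (Zfp931, 6.91%) and at high sharing (Gm14410, 75.2%), and genes with every window shared range from Gm2007 at 0.00654 to Gm2004 at 2.25.

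The members' levels ranged widely, and the zinc finger genes were expressed at low levels. Their mean FPKM over the 6 libraries ran from 0.00654 to 7.56, and 8 of the 36 had at most 10 fragments in all libraries together. A mean FPKM of at least 0.5 was required for the comparison of genotypes, which 18 of the 36 passed, as did 1 of the 8 genes with a KRAB box and few fingers (Gm14288) and 5 of the 8 others. Gm11009 had no fragment in any library. Across the 36 genes, sharing and mean FPKM were weakly related (Spearman's rho = −0.23, n = 36, with copies that share fragments). Along the segment, the expressed genes lay in the distal part. Of the 9 zinc finger genes that start in the first Mb of the segment 1 passed, against 4 of 8 in the next Mb, 8 of 13 in the Mb from 2 to 3 and 5 of 6 in the last Mb. The genes of the Mb from 2 to 3 supplied 42.1 to 50.2% of the zinc finger fragments of each library, and those of the last Mb supplied 33.9 to 39.5%.

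Gm14410, a KRAB zinc finger gene at chr2:177183453-177206421 on the minus strand, had the largest positive difference of the members above the filter. The Angptl2+/+ libraries measured 3.55, 4.15 and 3.83 FPKM and the Angptl2-/- libraries 7.63, 6.50 and 10.4, from 152, 177 and 156 against 351, 263 and 409 fragments. The genotypes did not overlap, and the lowest Angptl2-/- value, replicate 2, was above the highest Angptl2+/+ value, replicate 2 of that genotype. The ratio of the mean levels was 2.13, and the difference was 1.04 ± 0.18 (SE, limma) on the log2(FPKM + 0.1) scale. Other copies held 75.2% of its windows, so a sum over the closest copies is given further on.

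Among the 18 zinc finger members with a mean FPKM of at least 0.5, 5 were higher in every Angptl2-/- library and 1 was lower in every one. Over all 14862 genes compared in the same way, the shares were 10.7% higher and 11.8% lower. The choice of the segment used this contrast, so these counts describe the members. The filter used the mean over all 6 libraries, whatever their genotype. Leaving out replicate 1 of Angptl2-/- gave 8 higher genes, but non-overlap is easier to reach with 1 library fewer. The share over all genes was not computed for that setting, so the 8 cannot be set beside the 5. The 5 higher genes were Gm14410, Gm14325, Zfp971, Zfp931 and Gm14399, and the lower gene was Gm11007.

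Gm14325 (chr2:177831791-177840336) was the most abundant zinc finger member, with a mean of 7.56 FPKM. It measured 5.20, 5.19 and 7.40 FPKM in Angptl2+/+ and 7.91, 9.13 and 10.5 in Angptl2-/- libraries. The gap between the genotypes was narrow, 7.40 against 7.91, and the log2 difference was 0.63 ± 0.18 (SE). Zfp971 (chr2:178023284-178034022) measured 2.06, 2.26 and 2.33 FPKM in Angptl2+/+ and 2.84, 3.26 and 4.87 in Angptl2-/- libraries, a log2 difference of 0.66 ± 0.21 (SE). Its 3 Angptl2+/+ libraries lay close together and replicate 3 of Angptl2-/- stood above the rest. This gene is among the less shared copies, with 22.1% of its windows in other genes.

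Zfp931 (chr2:178067695-178078476), which is also little shared (6.91%), measured 3.49, 2.79 and 2.77 FPKM in Angptl2+/+ and 3.65, 3.74 and 4.78 in Angptl2-/- libraries. The genotypes were separated by the gap from 3.49 to 3.65 only, and the log2 difference was 0.41 ± 0.16 (SE). Gm14399 (chr2:175129493-175142012), the only expressed zinc finger gene of the first Mb, measured 1.25, 1.19 and 1.27 against 1.69, 2.11 and 1.69 FPKM, from 54 to 57 and 71 to 91 fragments. Each genotype formed a tight group, and the log2 difference was 0.53 ± 0.17 (SE).

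Gm11007 (chr2:175643978-175653860) went the other way. It measured 0.635, 1.09 and 1.92 FPKM in Angptl2+/+ and 0.521, 0.474 and 0.610 in Angptl2-/- libraries, a log2 difference of −0.93 ± 0.39 (SE). Its Angptl2+/+ libraries spanned a wide range and the lowest of them was just above the highest Angptl2-/- library. With quantile normalization the genotypes overlapped, and without replicate 3 of Angptl2+/+ the difference was −0.56. All of its windows were shared with other copies, and the counts behind these values were 12 to 49 fragments per library. Gm14305 (chr2:176708328-176721813), the third most abundant zinc finger member, measured 3.88, 3.60 and 4.38 against 4.19, 5.17 and 5.79 FPKM. The genotypes overlapped, with a log2 difference of 0.34 ± 0.15 (SE).

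**Figure D2:**
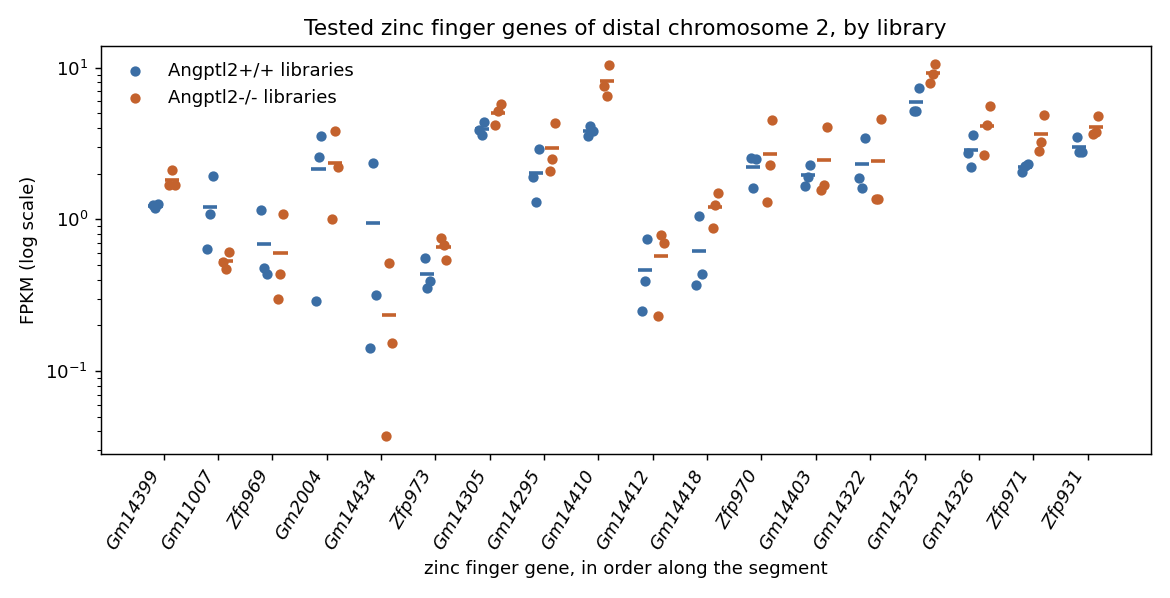
FPKM (y axis, log scale) of the 18 zinc finger members with a mean FPKM of at least 0.5, in their order along chromosome 2 (x axis), with 1 point per library, blue for Angptl2+/+ and orange for Angptl2-/-, and a bar at the mean of the 3 libraries. Gm14410 lies at 3.55 to 4.15 in Angptl2+/+ and 6.50 to 10.4 in Angptl2-/-, while the points of Gm2004 (0.288 to 3.85) and Gm14434 (0.0376 to 2.37) are widely scattered within both genotypes.

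The remaining 12 zinc finger members above the filter, Gm14305 among them, overlapped between genotypes, with log2 differences from −1.18 (Gm14434) to 0.95 (Gm14418). Over the 18 genes, 14 differences were above 0 and 4 below, with a median of 0.45, where the median over all 14862 genes was −0.004. Replicate 3 of Angptl2-/- was the highest of the 6 libraries for 11 of the 18 genes and the lowest for none. Without that library the median was 0.24, and without replicate 1 of Angptl2-/- it was 0.57. The 18 zinc finger members below the filter had mean FPKM values of at most 0.406 and 1 to 145 fragments in all. Of these only Gm14444 and Gm4724, both higher in Angptl2-/-, did not overlap between genotypes. Gm14444 had 0, 1 and 0 against 8, 5 and 3 fragments, and Gm4724 had 2, 5 and 7 against 10, 15 and 7. The share over all genes below the filter was not computed, so nothing is read from this count.

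Several copies varied within a genotype far beyond counting error. Gm2004 had 9, 80 and 106 fragments in the Angptl2+/+ libraries and 34, 114 and 64 in the Angptl2-/- libraries. Gm14434 had 7, 117 and 15 fragments in Angptl2+/+ and 2, 24 and 7 in Angptl2-/- libraries. Both are copies with 99.7 to 100% of their windows shared. For the 18 genes the chi-square per degree of freedom within genotypes had a median of 7.44 (0.719 to 46.2), while 5176 genes of the same range of fragments had a median of 3.81 and a 90th percentile of 14.2. Of the 18 genes, 6 were above that percentile. The relation of this spread to sharing was weak (Spearman's rho = 0.253, n = 18).

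**Figure D3:**
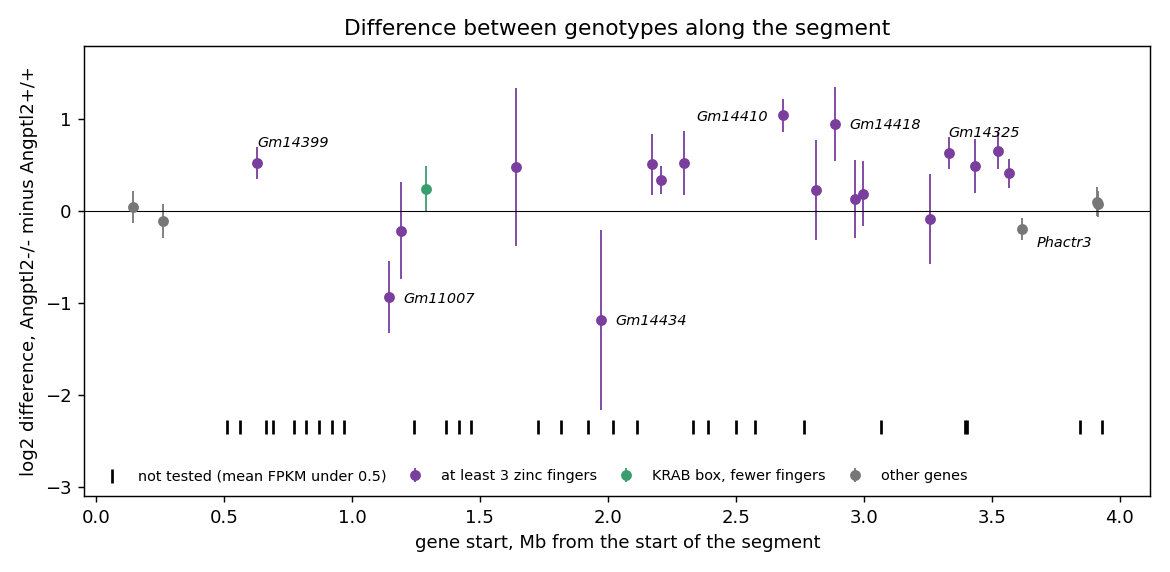
Log2 difference in FPKM between Angptl2-/- and Angptl2+/+ (y axis, points with SE from limma) against the start of each gene in Mb from the start of the segment (x axis), for the 24 members with a mean FPKM of at least 0.5, coloured by class, with ticks for the members below it. The purple zinc finger genes lie mostly above 0, from −1.18 to 1.04, and the grey genes of other families at both ends lie between −0.19 and 0.11.

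If no fragment was counted for several genes, sums over copies do not depend on how fragments were divided among them. They then depend only on fragments lost or given to genes outside the sum. Whether fragments were counted for several genes is not given in the sources used here. They are given as CPM, the fragments of a group scaled to a total of 1000000 assigned to genes in the library. The 36 zinc finger members together took 80.6, 83.6 and 92.8 CPM in Angptl2+/+ and 95.7, 114 and 149 in Angptl2-/- libraries. All 3 Angptl2-/- libraries were above the Angptl2+/+ libraries, with means of 85.7 ± 6.36 and 119 ± 26.9 (SD, n = 3 each) and a ratio of 1.39. Leaving out replicate 3 of Angptl2-/- lowered the log2 ratio from 0.48 to 0.29. With the denominators of the deposited FPKM, which are not the assigned fragments, the sums were 78.8, 82.4 and 99.3 against 94.4, 117 and 155. On that scale the genotypes overlapped. The assigned fragments exceeded these denominators in replicate 3 of Angptl2+/+ and replicates 2 and 3 of Angptl2-/-. In the remaining libraries they were below them. Whether fragments counted for several genes made up this excess was not tested.

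Gm14410 alone did not make up the difference. Without it the other 35 genes took 71.9, 73.5 and 84.2 against 77.1, 98.7 and 125 CPM, a ratio of 1.31 with overlapping genotypes. The 13 genes with under 50% of their windows shared took 27.3, 25.4 and 26.3 against 28.3, 34.3 and 47.1. The 23 genes with 50% or more took 53.3, 58.2 and 66.5 against 67.4, 79.5 and 102. The ratio was 1.39 for the less shared and 1.40 for the more shared genes, and in both classes the lowest Angptl2-/- library, replicate 1, was only slightly above the highest Angptl2+/+ library. With the denominators of the FPKM both classes overlapped, at 27.9 against 28.1 for these libraries in the less shared genes and 66.5 against 71.2 in the more shared genes.

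**Figure D4:**
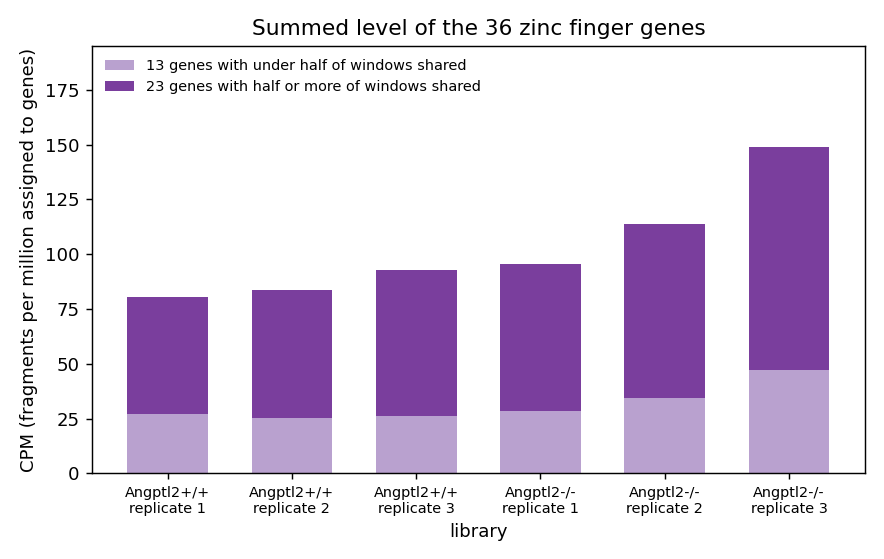
Summed level of the 36 zinc finger members in CPM (y axis, bars from 0) in each of the 6 libraries (x axis), divided into 13 genes with under 50% of their windows shared and 23 genes with 50% or more. The bars reach 80.6 to 92.8 in Angptl2+/+ and 95.7 to 149 in Angptl2-/- libraries, with replicate 3 of Angptl2-/- the highest.

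Genes linked by at least 50% of the windows of either member formed 7 groups of copies. The group of Gm14410 has 9 members, among them Gm14305, Gm14434, Gm4724 and Gm11007. It took 20.6, 28.4 and 23.2 CPM in Angptl2+/+ and 30.8, 31.1 and 39.9 in Angptl2-/- libraries. The genotypes did not overlap and the ratio was 1.41, lower than the 2.13 of Gm14410 alone. The group had 360, 497 and 422 fragments in Angptl2+/+ and 583, 540 and 684 in Angptl2-/- libraries. Of these, 152, 177 and 156 against 351, 263 and 409 were those of Gm14410. The remaining fragments of the group overlapped between genotypes, so the separation of the sum rests on Gm14410. Within the group, Gm14410 was higher in Angptl2-/- and Gm11007 was lower. The group of Gm2004, Gm14295 and Gm14419 took 7.96, 9.31 and 15.4 against 9.4, 15.4 and 18.4 CPM, with overlap. Of the other 5 groups only the pair Gm14444 and Gm14406, with at most 8 fragments in a library, was separated.

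GC content, which differs strongly between these genes and the rest of the genome, moved with the differences between genotypes. The exons of the 18 zinc finger genes have 35.6 to 41.1% GC (median 39.1%), against a median of 49.4% over all genes compared. Over all 14862 genes, GC content and the log2 difference had a Spearman's rho of −0.632, with genes that share libraries and are not independent. The 961 genes with less than 40% GC, 12 of them zinc finger members, had a median log2 difference of 0.33, and 91.7% of them were above 0. In the band from 40 to 45%, with the other 6, the median was 0.21, and above 55% it was −0.30.

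After a loess correction of each library for exonic GC content, the median of the 18 zinc finger genes was 0.11, with 10 above 0 and 8 below. Gm14410 (0.76), Gm14325 (0.36) and Zfp971 (0.34) remained higher in every Angptl2-/- library, and Gm11007 (−1.23) remained lower. Over all genes, the corrected shares were 6.88% higher and 6.06% lower in every Angptl2-/- library. Zfp931 (0.02) and Gm14399 (0.19) overlapped between genotypes after the correction, and Gm14305 was at −0.01. The corrected sum over the 36 genes was 89.1, 98.6 and 101 against 95.3, 103 and 128, with the denominators of the FPKM, a ratio of 1.13 with overlap, where the uncorrected ratio with these denominators was 1.41. The part of GC content in the differences was not tested further.

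Zinc finger genes elsewhere in the genome were compared in the same way. Of 117 other genes with at least 3 fingers and the same spelling of the KRAB box, 86 passed the filter. Their median log2 difference was 0.30, 80 of them were above 0, 28 were higher in every Angptl2-/- library and 3 were lower, beside 10.7% and 11.8% over all genes. After the GC correction their median was 0.09, with 5 higher and 1 lower in every Angptl2-/- library, beside 6.88% and 6.06% over all genes. Of all 611 zinc finger genes elsewhere, 481 passed, with a median of 0.13 before and 0.03 after the correction. Before it, 84 of the 481 were higher and 41 lower in every Angptl2-/- library, and after it 27 were higher and 14 lower. The 20 genes compared in the 4 Mb proximal to the segment had a median of −0.15 (GC 52.5%), with 0 higher and 4 lower in every Angptl2-/- library. The 46 genes of the 4 Mb distal to it had a median of −0.05 (GC 53.6%), with 2 higher and 6 lower. After the GC correction these medians were −0.01 and 0.07, beside 0.11 in the segment. The proximal genes then had 0 higher and 2 lower and the distal genes 7 higher and 1 lower, beside 6.88% and 6.06% over all genes. Whether the segment differs from these sets was not tested.

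**Figure D5:**
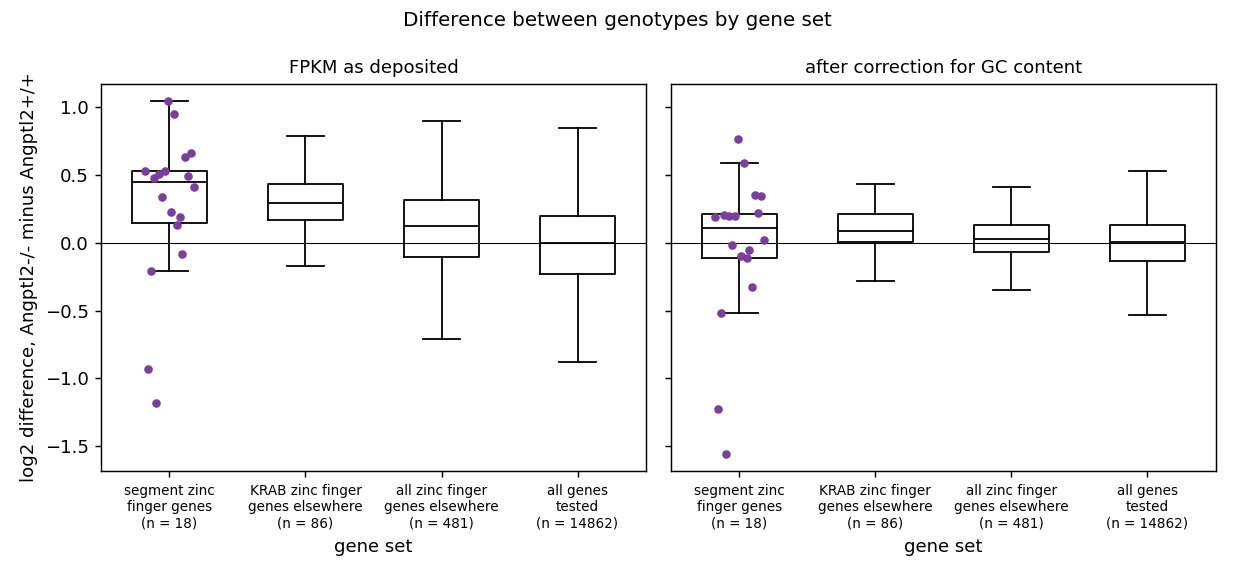
Log2 difference in FPKM between Angptl2-/- and Angptl2+/+ (y axis) for the 18 zinc finger members (points and box), 86 KRAB zinc finger genes elsewhere, 481 zinc finger genes elsewhere and all 14862 genes, before (left) and after (right) correction for GC content; boxes show the median and quartiles, with whiskers to the farthest value within 1.5 times the box height. The medians of 0.45, 0.30, 0.13 and −0.004 on the left become 0.11, 0.09, 0.03 and 0.01 on the right.

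The genes of other families at the ends of the segment overlapped between genotypes. At the proximal end, Zfp831, a zinc finger gene outside the KRAB family, and Edn3, which encodes the peptide endothelin 3, had log2 differences of 0.05 and −0.11. At the distal end, Phactr3, a regulator of protein phosphatase 1 and actin and the most abundant member, measured 21.8, 23 and 25.4 FPKM in Angptl2+/+ and 21.2, 22.3 and 18.1 in Angptl2-/- libraries (log2 difference −0.19 ± 0.12, SE). Without replicate 3 of Angptl2-/- its difference was −0.10. Fam217b measured 13.7, 13.1 and 17.3 against 13.6, 16.4 and 16.4 FPKM (0.08 ± 0.14, SE), and its difference ranged from 0.001 (without replicate 2 of Angptl2+/+) to 0.20 (without replicate 3 of Angptl2+/+) as single libraries were left out. Ppp1r3d, which encodes a glycogen-targeting subunit of protein phosphatase 1, was at 0.11. Sycp2, a component of the synaptonemal complex, and the cadherin gene Cdh26 were below the filter, at mean FPKM of 0.136 and 0.0976. Zfp972 (chr2:177903340-177925613) lies among the zinc finger genes and not at an end, and 32.0% of its windows are shared. It was also below the filter, at 0.189. Of the 8 genes with a KRAB box and few fingers, Gm14288 was at 0.24 with overlap and at −0.14 after the GC correction, and the other 7 had mean FPKM values from 0 to 0.334.

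At the edges of the segment, the members just inside were Zfp831, with 2.33 to 3.37 FPKM over the 6 libraries, and Cdh26, with 0.0196 to 0.149. Just outside lay Prelid3b (chr2:174465067-174473081), with 16.8 ± 0.78 FPKM in Angptl2+/+ and 14.6 ± 1.30 in Angptl2-/- libraries (SD, n = 3 each), and Cdh4 (chr2:179442431-179899373), with 5.28 ± 1.77 and 6.25 ± 1.23.

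The partners through which KRAB zinc finger proteins act were examined as a list of 25 corepressor genes, which the choice of the segment did not use. Of the 23 that passed the filter, none passed an adjusted p of 0.05 (limma, Benjamini-Hochberg over all genes, smallest value 0.273), 5 were higher and 1 lower at an unadjusted p, and 10 were higher and 1 lower in every Angptl2-/- library. Over all genes, 7.09% were higher and 9.12% lower at an unadjusted p, and 10.7% and 11.8% were so in every library. Trim28, which binds the KRAB box, measured 29.8, 33.1 and 31.7 FPKM in Angptl2+/+ and 31.7, 30.3 and 31.7 in Angptl2-/- libraries. Its difference was −0.01 ± 0.09 (SE). Cbx3, a heterochromatin protein 1 gene, measured 8.23, 8.20 and 8.33 against 9.85, 10.9 and 12.3 FPKM (limma adjusted p = 0.273). Gatad2a, a subunit of the NuRD deacetylase complex, measured 4.85, 4.84 and 4.93 against 3.96, 3.57 and 3.41 FPKM (limma adjusted p = 0.273). Chd3, the NuRD helicase and the most abundant of the list, measured 95.9, 117 and 100 against 110, 86.6 and 71.7 FPKM and overlapped. The median over the 23 genes was 0.10, and after the GC correction it was 0.05, with 5 genes higher and 1 lower in every Angptl2-/- library (6.88% and 6.06% over all genes).

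Over all 14862 genes, limma called none at an adjusted p of 0.05 (0%), and 1054 were higher and 1355 lower at an unadjusted p. By voom on the recovered fragments the count was also 0, of 14853 genes, and an unadjusted p gave 1150 higher and 1229 lower. Angptl2 itself lies 141 Mb proximal to the segment on the same chromosome (chr2:33216069-33247717). It measured 0.660, 0.958 and 0.290 FPKM in Angptl2+/+ and 0.166, 0.320 and 0.126 in Angptl2-/- libraries, which overlapped by a single library of each genotype. The deposited values cover the gene as a whole and not exon 2, so they do not check the deletion directly.

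Markers of several cell types also differed between the libraries, and in bulk tissue fewer cells of a type and less RNA per cell cannot be told apart. The summed FPKM of the 5 choroid plexus markers, led by Ttr, was 1.56 to 6.25 in Angptl2+/+ and 102 to 929 in Angptl2-/- libraries, with 3 of the 5 higher in every Angptl2-/- library. The 5 red blood cell markers, led by Hbb-bs, summed to 302 to 498 against 125 to 274, with 3 of 5 lower. No marker of these 2 lists was at 0 in a library. The 2 endothelial markers, led by Cldn5, summed to 37.3 to 48.4 against 23.2 to 34.2, and the 2 markers of dividing cells, led by Top2a, to 0.303 to 1.29 against 1.51 to 2.06. Of the striatal markers, 4 (led by Ppp1r1b) overlapped at 18.1 to 58.9 against 44.6 to 101, with 1 of them higher in every Angptl2-/- library. The 4 cerebellar markers, led by Cbln1, reached 56.7 in replicate 1 of Angptl2+/+ and 5.04 to 7.84 in the other 5 libraries. The sums of the germ cell markers, led by Dazl, and of those of neurons, astrocytes, oligodendrocytes and microglia, each of 3 genes, overlapped between genotypes. Within each of these 5 lists 1 marker did not overlap, higher in Angptl2-/- for germ cells, astrocytes and microglia and lower for neurons and oligodendrocytes. Beside these marker counts, 10.7% of all 14862 genes were higher and 11.8% lower in every Angptl2-/- library. A count of 1 in a list of 3 cannot be told from those shares. Replicate 3 of Angptl2-/-, the library with the highest zinc finger sum, was also the highest for the striatal, dividing and germ cell markers and the lowest for the red blood cell, endothelial and microglial markers, while the choroid plexus markers were highest in replicate 2. The part of tissue composition in the zinc finger differences was not tested.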

How the data were processed

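RNA-seq of brain tissue compared 3 Angptl2+/+ with 3 Angptl2-/- libraries. The authors deposited 1 table of FPKM with a value for each gene in each library. The submitters' processing notes name Bowtie 0.12.2 and mm8, but the identifiers and exon lengths are those of GENCODE M21 (GRCm38), which holds 54495 of 54532. The counting tool was not given in the sources used here, nor were its strand setting and its treatment of shared reads. FPKM multiplied by exon length gave whole fragments for 96.6 to 96.8% of values (tolerance 0.05). These fragments were used for the CPM sums, for voom and for counting error. Counting error does not measure the spread between replicates. Correlations between libraries were 0.934 to 0.966, and every pair differed by more than counting error.

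Members and gene lists were chosen with earlier results of these data known. Zinc fingers and KRAB boxes were found by letter patterns in proteins translated from GENCODE coding sequences (in place of RefSeq proteins, which were not used here). The KRAB pattern finds only part of the KRAB genes elsewhere. limma 3.58.1 (R 4.3.3) with an intensity trend was fitted across all genes at or above 0.5 in mean FPKM, on log2(FPKM + 0.1), which understates changes of low genes, and p-values were adjusted by Benjamini-Hochberg. Genotypes were called separated where their 3 libraries did not overlap in FPKM. Sums were CPM, scaled to the fragments assigned to genes. The GC correction was a loess fit per library (span 0.3) over the genes at or above 0.5 in mean FPKM. Named genes were Gm14410, separated members above the filter, the 5 most abundant members, the most abundant corepressor and the 2 of smallest p, Angptl2 and the most abundant gene of each marker list. 1 marker of the striatal list is not reported here. Other genes were named after their values were seen. The code was tested on simulated data. Sequences came from RefSeq (GRCm38.p6) for promoters and GENCODE M21 for coding starts; Python 3.11.15 and Biopython 1.88 were used. Alternatives were other pseudocounts (1 and 0.01), filters and scalings, the replicate block and leaving out each library.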

Additional observations from a re-analysis of the deposited data

How the results depend on the processing

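Of the 9 members followed through the alternatives, only Gm14305 changed sign, to −0.01 after the GC correction. Under that correction the count of zinc finger members higher in every Angptl2-/- library fell from 5 to 3. The share of all genes compared that were so also fell, from 10.7% to 6.88%. The median log2 difference of the zinc finger members fell from 0.45 to 0.11. The log2 ratio of their summed level, with the denominators of the FPKM, fell from 0.49 to 0.18. The lower count, 1 gene, was 0 with a mean FPKM of at least 1 and with quantile normalization. Leaving out each library in turn gave 5 to 8 higher members (8 without replicate 1 of Angptl2-/-) and 1 to 2 lower members (2 without replicate 3 of Angptl2-/-). Non-overlap is easier to reach with 1 library fewer, so these counts cannot be set beside those from all libraries. The medians were 0.24 to 0.57 and the log2 ratios of the sum 0.29 to 0.62. The log2 ratio on assigned fragments was 0.48, and the denominators of the FPKM (0.49) were an alternative chosen after seeing the data. Over all genes, 0 calls became 1 with the replicate block and 1 without replicate 1 of Angptl2+/+ (0 to 1 over the libraries left out), and 2409 at an unadjusted p.

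Deviations of same-numbered libraries from their genotype means correlated over genes at 0.0371, −0.0693 and 0.162. The highest such correlation was between replicate 2 of Angptl2+/+ and replicate 1 of Angptl2-/- (0.257). These values show no pairing by number, but so few libraries cannot decide whether the numbers pair the samples. With the replicate block the log2 ratio of the sum was 0.46 and the zinc finger median 0.45. Pseudocounts do not enter the sum and were not run for it. Low fragment numbers and shared windows limit single copies: at 12 to 49 fragments per library, the log2 difference of Gm11007 ranged from −1.29 to −0.49 over 15 settings, and that of Gm14410 from 0.76 to 1.20 over 16.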
